A study of Mus musculus with 6 samples.

Results

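Inflammatory cytokines and the feedback genes of NF-kappaB were measured in mouse testis cells on 6 Affymetrix Mouse430A_2 arrays, where a transcript is read by a set of short probes (a probe set). The members were the listed symbols Il1b, Il1rn, Il6, Il10, Il18, Tnf, Nfkb1, Nfkbia, Relb and Tnfaip3, taken with every probe set annotated to them. Of these 10 genes, 9 had a probe set with that annotation, 14 probe sets in all, among 12393 named genes and 22626 tested probe sets. Nfkb1 was not analysed here.

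All 6 samples came from transgenic CD4HAglo mice, in which a stretch of the Stra8 promoter, active in germ cells, drives human CD4 as a cell surface tag, and the labels give no age, strain background or further treatment. In 3 samples, titled spermatogonial stem cells, the CD4-positive cells had been isolated with magnetic beads, from 50 pooled males for each preparation. The other 3 were titled total testicular cells, while their source text names CD4-negative cells of the same mice, so whether the unsorted or the depleted cells were hybridised is not settled by the labels. Nothing states that the 3 samples of a group were separate preparations, so the p-values measure the spread between these samples, which may be technical.

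NF-kappaB is a family of dimeric transcription factors held inactive in the cytoplasm by inhibitor proteins, of which the product of Nfkbia (IkB-alpha) is the best known. Signals from cytokine and endotoxin receptors lead to destruction of the inhibitor, and the freed dimers switch on cytokine genes such as Il1b, Il6 and Tnf together with their own brakes, Nfkbia and Tnfaip3. Il1rn and Il10 encode secreted proteins that dampen inflammation. In the testis, macrophages between the tubules are a known source of such cytokines and are regarded as anti-inflammatory in the resting organ.

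Promoter stretches of 4 members are shown. Nfkbia and Il18 are the members whose stem cell values all lay above the other arrays. Il6 and Tnfaip3 are NF-kappaB target genes whose values overlapped between the groups, at low signal. Against the background level of 2.15 on the log2 scale, set further on, Il6 read at most 1.76 and Tnfaip3 2.36 to 2.68. Each stretch is the 150 bases just before the annotated start site, from RefSeq (GRCm38.p6), read 5′ to 3′ on the gene's strand, and capitals mark matches to the NF-kappaB consensus. They lie at chr12:55492648-55492797 (minus strand) for Nfkbia, chr9:50554550-50554699 (plus) for Il18, chr5:30012964-30013113 (plus) for Il6 and chr10:19015411-19015560 (minus) for Tnfaip3.
Nfkbia: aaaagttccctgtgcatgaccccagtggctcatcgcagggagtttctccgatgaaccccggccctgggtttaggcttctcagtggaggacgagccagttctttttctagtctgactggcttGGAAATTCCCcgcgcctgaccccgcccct
Il18: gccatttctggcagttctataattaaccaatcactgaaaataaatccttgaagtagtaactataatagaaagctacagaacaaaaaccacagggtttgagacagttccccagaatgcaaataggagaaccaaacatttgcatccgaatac
Il6: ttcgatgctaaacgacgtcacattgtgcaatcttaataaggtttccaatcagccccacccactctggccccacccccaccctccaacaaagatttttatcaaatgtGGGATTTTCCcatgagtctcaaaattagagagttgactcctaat
Tnfaip3: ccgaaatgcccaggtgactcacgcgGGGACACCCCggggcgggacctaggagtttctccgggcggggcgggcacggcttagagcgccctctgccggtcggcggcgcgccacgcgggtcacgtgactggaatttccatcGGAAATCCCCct

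The consensus (10 bases, both strands, 1 motif only) was searched from 250 bases before to 50 after each annotated start. Nfkbia had 1 match, starting 29 bases before its start site, and Il6 had 1, at 44 bases. Tnfaip3 had matches at 125 and 12 bases in the window of its upstream start. Of the 7 members in the RefSeq promoter table, these 3 had a match, in 3 of 10 windows, while 8.46% of all 32851 windows held one. Windows of Il18, Il1b, Il1rn and Tnf held none, which says only that these letters are not in these windows.

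Values are the deposited log2 probe set summaries. A background level of 2.15 was set as the 95th percentile over 27 control probe sets for bacterial RNA, and 79.7% to 84.1% of probe sets per array lay above it. Correlations between arrays were 0.992 to 0.995 within total testicular cells and 0.970 to 0.984 within stem cells, and stem cell replicate 1 was the array with the highest hybridization controls (8.96, against 8.37 to 8.51 on the other 5). The arrays were placed in 3 fluidics rounds by the clock time of the hybridization date in their file headers (neighbours less than 15 minutes apart). Round 1 held total testicular cell replicates 1 and 3 and stem cell replicate 1. Replicate 2 of each group made up round 3, and round 2 held stem cell replicate 3 alone. Of the 12 measured genes listed for undifferentiated spermatogonia, 0 passed the test in either direction, with a median difference of −0.14 and summed linear values of 329 to 340 in total testicular cells and 187 to 310 in stem cells. Of these 12, 3 had positive and 9 negative differences. Without overlap between the groups, 1 of the 12 was higher and 2 were lower, where 13.8% of all genes were higher and 19.2% lower. The higher one was Itga6, a surface integrin also used to sort such cells (0.99, limma adjusted p = 0.0739, and 0.0490 with the round as a block). The defining markers Zbtb16 and Gfra1 lay within 1 log2 unit of background on all 6 arrays, with differences of −0.43 and −0.17.

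No member passed the test over all probe sets (limma, Benjamini-Hochberg adjusted p under 0.05): 0 of 9 genes rose and 0 fell, and 0 of 14 probe sets passed. Among all genes, 202 were higher (1.63%) and 17 lower (0.137%), and 1.40% of probe sets were higher. When arrays were centred on the hybridization controls, 516 genes were higher and 221 lower, and the median difference of all genes was −0.22 instead of −0.05 (−0.16 under median centring). At an unadjusted p under 0.05, 2 of the 9 members, Nfkbia and Il18, were higher and 0 were lower. At that cut-off 1458 of all 12393 genes were higher (11.8%) and 1625 were lower. The same 2 genes had stem cell values that did not overlap with the others, where 13.8% of all genes were higher and 19.2% lower without overlap. With 3 arrays against 3, an exact two-sided permutation test cannot go below p = 0.1. The median log2 difference (stem cells minus total testicular cells) of the 9 genes was 0.15, against −0.05 for all genes. Stem cell replicate 1 had the highest value of the 6 arrays for 5 of the 9 genes.

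**Figure D1:**
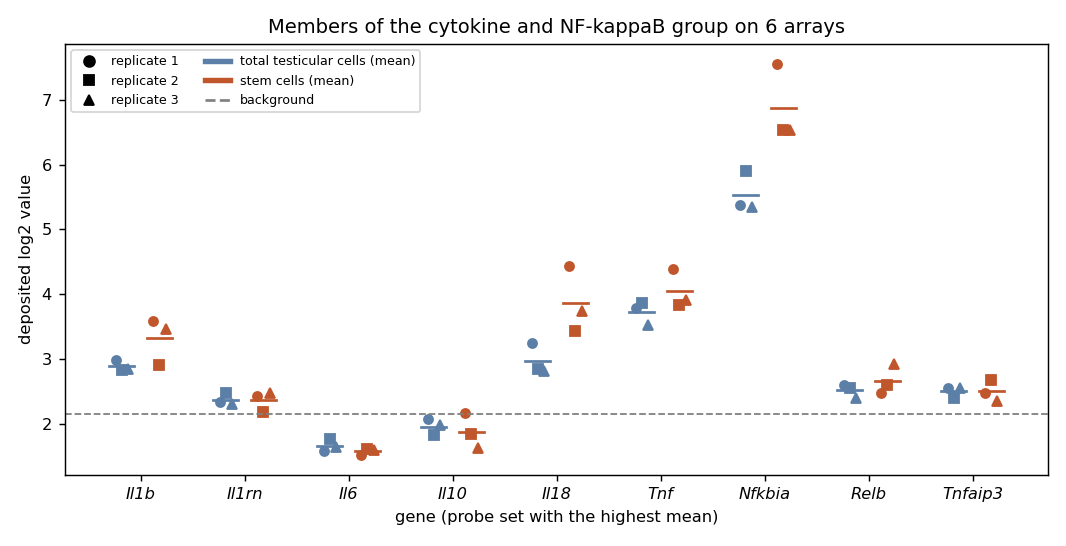
Deposited log2 values (vertical axis) of the 9 measured members (horizontal axis, each by its probe set with the highest mean), with a point for each array, shaped by replicate number, a bar for each group mean and a dashed line at the background of 2.15. Nfkbia and Il18 are the 2 genes whose 3 stem cell points all lie above the 3 total testicular cell points, and Il6 lies below background on all 6 arrays.

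Markers of macrophages and Leydig cells, and Clu of the Sertoli cell list, were higher on the same arrays as Nfkbia and Il18, and their part in these differences was not tested. In the macrophage list 12 of 15 measured genes rose and 0 fell, with a median log2 difference of 4.34. Its summed linear values were 217 to 331 in total testicular cells and 10671, 3746 and 2836 in stem cell replicates 1, 2 and 3, and no marker was below background on all arrays. In the Leydig cell list 0 of 7 passed, and 7 were higher at an unadjusted p under 0.05, as 11.8% of all genes were. The sums of this list were 348 to 711 and 3406, 1703 and 894. In the Sertoli cell list 1 of 10 rose, Clu (2.02, limma adjusted p = 0.0234), 0 fell, the median was 0.21, and the sums were 411 to 484 and 2258, 901 and 1436. Stem cell replicate 1 had the highest sum in the 3 lists, as it had the highest value of Nfkbia, Il18, Il1b and Tnf. In bulk samples, more cells of a type and more RNA per cell cannot be told apart.

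Other leukocytes gave little signal. Of 9 neutrophil markers 0 passed (summed linear values 42.2 to 48.7 in total testicular cells and 40.9 to 50.6 in stem cells). Of 10 lymphocyte markers 1 rose, Ptprc, which all leukocytes share (2.87, limma adjusted p = 0.0280), with sums of 55.5 to 58.5 and 68.6 to 140. Of 9 dendritic and mast cell markers 0 passed, with sums of 63.2 to 69.6 and 65.3 to 70.3, and Xcr1 was below background on all 6 arrays.

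Nfkbia, the gene of the inhibitor IkB-alpha, showed the largest difference among the members. Its brightest probe set (1420088_at) read 5.38, 5.90 and 5.34 on total testicular cell arrays 1, 2 and 3 and 7.56, 6.53 and 6.54 on stem cell arrays 1, 2 and 3. All 3 stem cell values were above all 3 others, and stem cell replicate 1 stood highest. The group means were 6.88 ± 0.59 and 5.54 ± 0.31 (SD, n = 3 each), and the log2 difference of 1.34 ± 0.29 (SE) corresponds to 2.53-fold higher levels in the stem cell arrays. Its 95% interval ran from 0.68 to 2.00, and the limma adjusted p = 0.0594 narrowly missed the threshold (unadjusted p = 0.00130). Of the 12393 genes, 2.76% had a larger positive difference.

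The other 3 probe sets of Nfkbia also had positive differences. Probe set 1448306_at read 4.19, 4.64 and 4.29 against 5.82, 5.38 and 4.93, again without overlap, with a difference of 1.00 ± 0.25 (SE, limma adjusted p = 0.0764). Probe set 1449731_s_at differed by 0.65 (limma adjusted p = 0.186) and 1420089_at by 0.30 (limma adjusted p = 0.407), and their groups overlapped. The 4 differences stayed positive under quantile normalization, median centring and centring on hybridization controls, where the smallest was 0.13. The probe sets thus shared a direction while their sizes ran from 0.30 to 1.34, and 1448306_at is the one of the 4 for which the annotation gives a transcript accession.

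Within round 1 the brightest Nfkbia probe set differed by 2.20 and within round 3 by 0.64, each from a single stem cell array (replicates 1 and 2), so that rounds and arrays cannot be told apart. With the round as a block, where stem cell replicate 3, alone in its round, adds nothing to the difference, it was 1.53 (limma adjusted p = 0.0403), which passes. Probe set 1448306_at passed there too (1.22, limma adjusted p = 0.0325). Leaving out stem cell replicate 1, 2 or 3 also brought the brightest Nfkbia probe set past the threshold, with differences of 1.00, 1.51 and 1.51 (limma adjusted p = 0.0333, 0.0416 and 0.0234). Without total testicular cell replicate 1, 2 or 3 it did not pass, at 1.26, 1.52 and 1.24 (limma adjusted p = 0.250, 0.131 and 0.251). In all of these the stem cell arrays were the higher for Nfkbia. The calls among all genes moved too, from 219 in the main run to 767 with the round as a block. Without stem cell replicate 1, 2 or 3 they numbered 345, 936 and 883. Without total testicular cell replicate 1, 2 or 3 they numbered 28, 48 and 36.

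**Figure D2:**
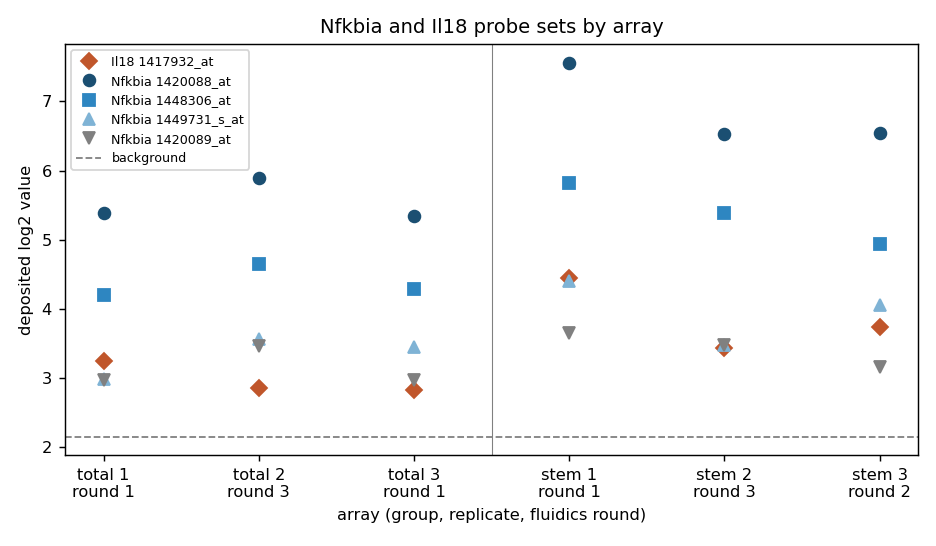
Deposited log2 values (vertical axis) of the 4 Nfkbia probe sets and the Il18 probe set on each array (horizontal axis, with the fluidics round), with a dashed line at background. The 2 brightest Nfkbia probe sets and Il18 are higher on every stem cell array than on any total testicular cell array, and the dimmer Nfkbia probe sets overlap between the groups.

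Il18, a cytokine of the interleukin 1 family that is stored as a precursor and cut by the protease of Casp1, had the second largest difference. Its probe set read 3.24, 2.85 and 2.82 in total testicular cells and 4.44, 3.43 and 3.74 in stem cells. The groups did not overlap, and the lowest stem cell value exceeded the highest of the others by less than the SD of either group. Means were 3.87 ± 0.52 and 2.97 ± 0.24 (SD, n = 3 each), 0.90 ± 0.26 (SE) apart on the log2 scale, or 1.86-fold, with a 95% interval from 0.30 to 1.49 (limma adjusted p = 0.104, unadjusted p = 0.00769). The difference was 1.41 in round 1 and 0.58 in round 3 (1 stem cell array each). A block for the round left Il18 short of the threshold (1.05, limma adjusted p = 0.0576), and without stem cell replicate 2 it passed (1.12, limma adjusted p = 0.0490).

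Il1b, the interleukin 1 beta gene and a standard readout of activated macrophages, was 2.99, 2.83 and 2.85 in total testicular cells and 3.59, 2.91 and 3.46 in stem cells. Stem cell replicates 1 and 3 were above all others, while replicate 2 lay among them. The log2 difference was 0.43 ± 0.20 (SE), with a 95% interval from −0.02 to 0.88 (limma adjusted p = 0.234). Tnf, the gene of tumour necrosis factor, read 3.78, 3.86 and 3.53 against 4.39, 3.83 and 3.91. Only stem cell replicate 1 stood clear of the other group by more than 0.1, and the difference of 0.32 ± 0.21 (SE) did not pass (95% interval −0.15 to 0.79, limma adjusted p = 0.377). Within round 3 it was −0.03 for Tnf and 0.08 for Il1b, and within round 1 it was 0.73 and 0.67.

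Il1rn encodes the antagonist that occupies the interleukin 1 receptor without signalling. Its brightest probe set (1423017_a_at) read 2.34, 2.47 and 2.30 in total testicular cells and 2.42, 2.18 and 2.47 in stem cells, interleaved and just above background. The difference was −0.01 ± 0.13 (SE), with a 95% interval from −0.30 to 0.28 (limma adjusted p = 0.970). Its other probe sets differed by 0.12 and −0.03, and 11 of its 18 values were above background. The difference of 0.12 turned negative (−0.05) when arrays were centred on hybridization controls. Low signal limits what these probes can show.

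Il6 and Il10 gave little or no signal above background. Il6, a cytokine gene that NF-kappaB induces, read 1.58, 1.76 and 1.63 in total testicular cells and 1.51, 1.61 and 1.59 in stem cells, below background on all 6. Il10, the gene of an anti-inflammatory cytokine of macrophages and lymphocytes, read 2.06, 1.82 and 1.97 against 2.17, 1.83 and 1.62, with stem cell replicate 1 alone above background. The differences were −0.08 ± 0.08 (SE) for Il6 and −0.08 ± 0.14 (SE) for Il10, and neither passed (limma adjusted p = 0.566 and 0.771). At this signal a difference in either gene could have been missed.

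The remaining NF-kappaB genes were dim and did not separate the groups. Tnfaip3, whose product removes ubiquitin chains and so ends NF-kappaB signalling, read 2.55, 2.39 and 2.55 in total testicular cells and 2.48, 2.68 and 2.36 in stem cells. The difference was 0.01 ± 0.14 (SE, 95% interval −0.30 to 0.32, limma adjusted p = 0.978). Relb, a subunit of the alternative NF-kappaB pathway, read 2.59, 2.55 and 2.40 against 2.48, 2.59 and 2.91, with a difference of 0.15 ± 0.15 (SE, 95% interval −0.20 to 0.49, limma adjusted p = 0.601). Both lay within 1 log2 unit of background on all 6 arrays. Their small positive differences turned negative when arrays were centred on hybridization controls (−0.16 for Tnfaip3 and −0.02 for Relb), and that of Tnfaip3 also under quantile normalization and median centring. Of the 2 feedback genes with a consensus match in the stretches shown, Nfkbia thus differed by 1.34 and Tnfaip3 by 0.01, and the contrast between the genes was not itself tested.

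**Figure D3:**
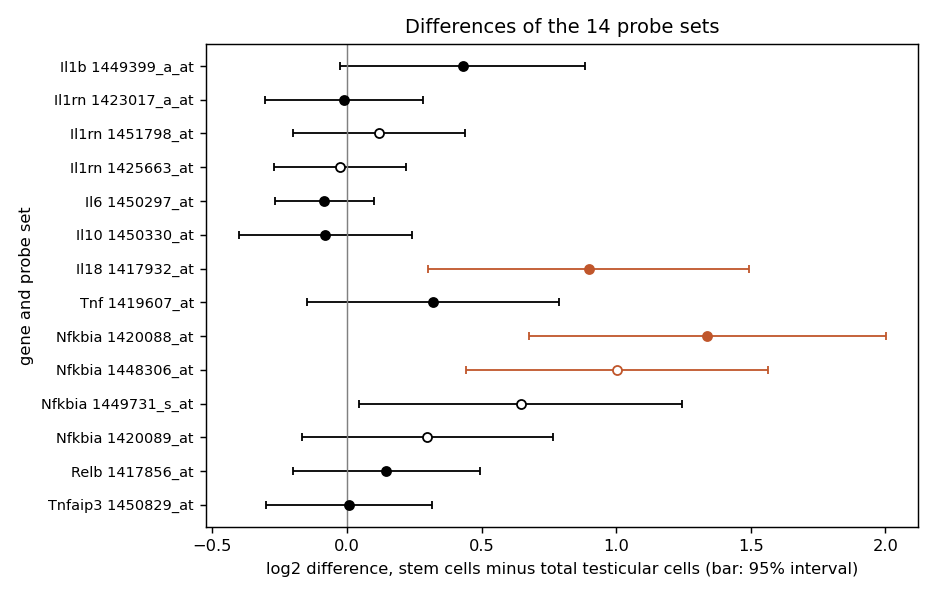
Log2 differences (horizontal axis, stem cells minus total testicular cells) of the 14 probe sets (vertical axis), with 95% intervals from the limma fit, filled for the probe set that represents its gene and coloured where the groups do not overlap. The 3 coloured probe sets, of Il18 and Nfkbia, and the Nfkbia probe set 1449731_s_at have intervals that lie above 0. All other intervals span 0, those of Il1b, Tnf and the Nfkbia probe set 1420089_at among them.

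The rest of the pathway was followed in 8 lists of 115 genes, of which 100 were measured. Of these 100, 3 rose and 0 fell (1.63% and 0.137% of all genes did), and their median difference was 0.10, against −0.05 for all genes. The receptors and decoys of the cytokines (13 measured, median 0.16) held the largest change of the pathway. Il10rb, the shared receptor chain for interleukin 10 and related cytokines, read 2.83, 3.47 and 3.39 in total testicular cells and 6.74, 5.32 and 5.20 in stem cells. It rose by 2.52 ± 0.39 on the log2 scale (SE, limma adjusted p = 0.0225). Its partner chain Il10ra had a difference of 0.67 (limma adjusted p = 0.113) and −0.10 and 0.13 on its other probe sets. The signal of Il10 itself stayed near or below background.

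Receptors for the other members did not pass. Tnfrsf1a, the widely expressed receptor for tumour necrosis factor, read 4.21, 4.05 and 3.78 against 5.78, 4.48 and 4.78 (difference 1.00, limma adjusted p = 0.117). Tnfrsf1b, the receptor typical of leukocytes, disagreed between its probe sets, with 0.07 for the brighter and 1.17 for the other (limma adjusted p = 0.845 and 0.112). The dimmer one passed with the round as a block (1.65, limma adjusted p = 0.0138). Il1r1, the signalling receptor for interleukin 1, differed by 0.16, its partner Il1rap by 0.02 and the decoy Il1r2 by −0.05. For interleukin 6, the receptor Il6ra differed by 0.20 and the signalling chain Il6st by 0.43. The limma adjusted p of these 5 ran from 0.328 to 0.966. Il1rap was negative under quantile normalization and both ways of centring, the brighter Tnfrsf1b probe set likewise, and Il1r1 when centred on hybridization controls.

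In the list of cytokine release genes (7 measured, median 0.48) 0 passed, and 5 of 7 had stem cell values above all others, as 13.8% of all genes did. Casp1, whose protease cuts the precursors of Il1b and Il18, read 2.74, 2.37 and 2.20 against 4.21, 3.28 and 2.98 (difference 1.05 ± 0.30 SE, limma adjusted p = 0.0980). With the round as a block it passed (1.38, limma adjusted p = 0.0243). Among the other 26 cytokines 0 passed, and the median was 0.05. At an unadjusted p under 0.05, 5 of the 26 were higher and 1 lower, where 1458 of all 12393 genes were higher and 1625 lower. In total testicular cells 25 of these 26 were at most 2 log2 units above background.

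The core NF-kappaB genes showed no called change. Of the 7 measured subunit and inhibitor genes outside the members, a list without Nfkbia and Relb, 0 passed even at an unadjusted p under 0.05. Their differences ran from −0.23 to 0.23. Rela, the main activating subunit, was well above background at 6.12, 6.35 and 6.15 against 6.30, 6.21 and 6.14 (difference 0.01 ± 0.16 SE, 95% interval −0.35 to 0.36, limma adjusted p = 0.978). Its sign turned under median centring and centring on hybridization controls. Rel, a subunit found mainly in blood cells, differed by 0.23 with values below background in total testicular cells, Nfkb2, of the alternative pathway, differed by 0.19, and neither passed (limma adjusted p = 0.374 and 0.606). Among the inhibitor genes of this list, Nfkbib and Nfkbie differed by −0.23 and 0.05, with overlap between the groups, as for all 7 genes.

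Among the 11 kinases and adaptors (median 0.15), Irak1, a kinase that relays signals of the interleukin 1, interleukin 18 and Toll-like receptors, rose by 1.11 ± 0.20 (SE, limma adjusted p = 0.0391). It read 2.51, 2.45 and 2.62 against 4.02, 3.53 and 3.35, and its 3 dimmer probe sets differed by 0.15 to 0.44 without passing. Among the 17 induced targets (median 0.29), Ccl3, a chemokine of macrophages, rose by 1.28 ± 0.24 (SE, limma adjusted p = 0.0421), from 2.23, 2.29 and 1.92 to 3.98, 3.24 and 3.05. Since total testicular cell replicate 3 lay below background, the size is uncertain. Of the 13 negative regulators (median 0.07) and the 8 genes of interleukin 6 and 10 signalling (median 0.36), 0 passed. The 3 calls depended on the total testicular cell arrays: without replicate 1, 2 or 3 of these the adjusted p by limma was 0.145, 0.0841 and 0.109 for Il10rb, 0.203, 0.137 and 0.171 for Irak1, and 0.202, 0.129 and 0.221 for Ccl3. Irak1 also missed the threshold when genes were taken as the mean of their probe sets (limma adjusted p = 0.0718). In that run the only probe set of Ccl3 kept its difference of 1.28 and also missed (limma adjusted p = 0.0501). Without the intensity trend both missed (limma adjusted p = 0.0535 for Irak1 and 0.0609 for Ccl3).

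**Figure D4:**
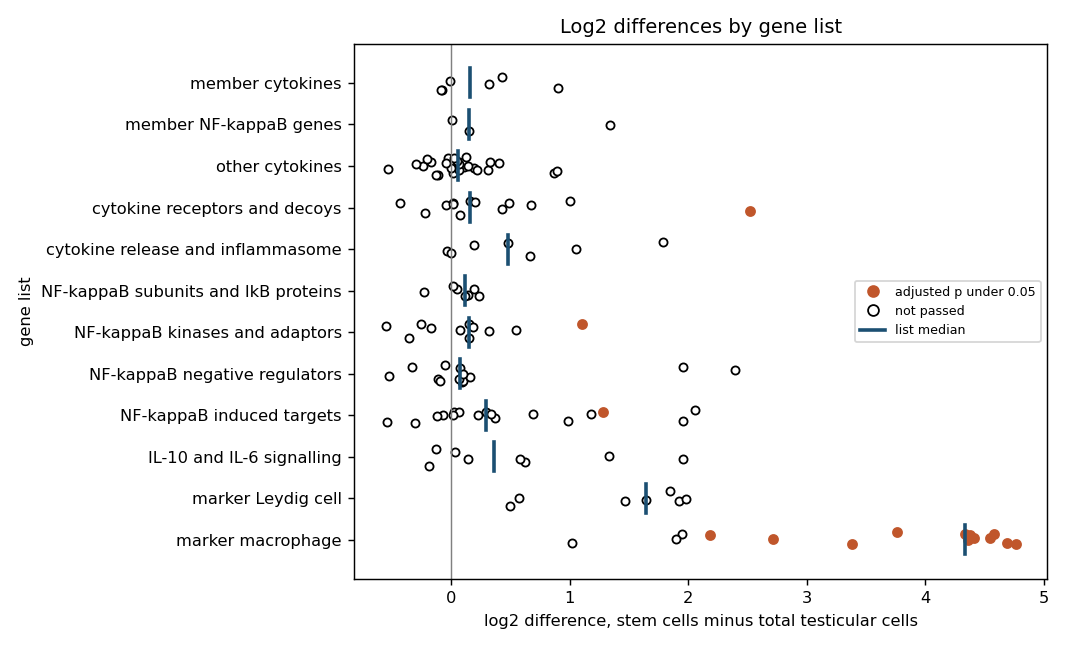
Log2 differences (horizontal axis, stem cells minus total testicular cells) of the genes in each list (vertical axis), filled where the limma adjusted p was under 0.05, with a bar at the list median. Passing were 12 of 15 macrophage markers, 0 of 9 members and 3 of 100 other pathway genes. Of all genes, 1.63% were higher and 0.137% lower.

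The 3 genes most like Nfkbia in pattern, by Pearson's r over the 6 arrays among 10915 genes above background, were Hprt, an enzyme of purine salvage (0.998), the lysosomal membrane gene Lamp1 (0.998) and Swap70 (0.998). For Il18 they were Lcn2, a secreted iron-siderophore binder (0.999), Lims1 (0.995) and Slc30a2 (0.994). Lcn2 read 7.70, 6.90 and 6.98 in total testicular cells and 10.43, 8.27 and 8.89 in stem cells. These likenesses were the highest of many and rest on 6 arrays in 2 groups, which share the group difference and the high stem cell replicate 1.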

How the data were processed

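Each of 6 total RNA samples was biotin-labelled for 1 array. The values are log2 probe set summaries deposited by the authors, as their range (1.20 to 13.20) and near-equal medians show. MAS5 and RMA are named in the submitters' processing notes, without version or role, and background correction and normalization are not given in the sources used here. Fluidics rounds were inferred from the clock time of the hybridization date in the file headers, without use of the day.

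Groups came from the titles. The 22626 probe sets left after removing 64 controls were tested as deposited, unfiltered, with limma 3.58.1 in R 4.3.3 (empirical Bayes with an intensity trend, two-sided, Benjamini-Hochberg over all probe sets; degrees of freedom 4 residual, 5.21 prior). The platform annotation gave 20380 probe sets 1 gene, 691 several and 1555 none, and none was named from several. A gene was represented by its probe set with the highest mean. Folds derive from log2 differences, and intervals are 95%. The number of arrays limits the precision. The procedure was tested on simulated data.

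The members, lists and rule for named genes were chosen with earlier results of these data known. The rule named all members, list genes past the threshold and 12 receptor, protease and subunit genes. Itga6, Zbtb16, Gfra1, Clu, Ptprc, Xcr1, Nfkbib, Nfkbie, Vcam1, Ier3, Zfp36, Socs3, Pycard, Jak1, Pim1, Tyk2 and Cish were named after their values were seen.

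Alternatives were quantile normalization, median centring, a background filter, replicate and round blocks, variance models, array weights, leaving out each array, other probe set choices and a log2 difference of at least 1. Centring on hybridization controls was chosen after seeing the data.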

Additional observations from a re-analysis of the deposited data

How the results depend on the processing

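Same-numbered samples did not deviate together (correlations −0.01, 0.01 and 0.30), nor did every sample correlate best with its own number, so the numbers were not taken as pairs, although replicates 1 of both groups shared round 1 and replicates 2 shared round 3. Nfkbia and Il18 kept a positive difference under every alternative run, with Nfkbia between 0.82 (mean of its probe sets) and 1.53. The member genes past the threshold numbered 0, and became 2 with the replicate block (Nfkbia at a limma adjusted p of 0.0194 and Il18 at 0.0363; 3 member probe sets, 13 pathway genes and 737 genes in all), 1 with the fluidics round as a block (2 probe sets, 13 pathway genes, 767 genes), 1 with array weights (2, 8 and 603) and 1 with centring on hybridization controls (1, 11 and 737). The pathway genes passing numbered 5 under median centring and 1 without the intensity trend (82 genes in all) or with the mean of probe sets (100 genes), against 3 and 219. Leaving out 1 array at a time gave 0 to 2 member genes, 0 to 2 member probe sets, 0 to 14 pathway genes and 28 to 936 genes past the threshold (28, 48 and 36 without total testicular cell replicates 1, 2 and 3, 345, 936 and 883 without stem cell replicates 1, 2 and 3; of the 936, 523 were lower), and 2 to 4 members without overlap. The replicate block changed no other member's call, and brought Casp1 (1.05) and Tnfrsf1a (1.00) past the threshold.

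Differences near 0 changed sign. With arrays centred on hybridization controls these were Relb (−0.019), Tnfaip3 (−0.16), Rela (−0.16), Il1r1 (−0.0070), Il1rap (−0.15) and Tnfrsf1b (−0.091). Under median centring they were Tnfaip3 (−0.10), Rela (−0.10), Il1rap (−0.10) and Tnfrsf1b (−0.037), and under quantile normalization Tnfaip3 (−0.035), Il1rap (−0.032) and Tnfrsf1b (−0.030). With the round as a block Il10 (0.089) and Il1rap (−0.0027) turned, with array weights Il1rap (−0.073), and Il1rn with the mean of its probe sets (0.028) or the probe set of largest difference (0.12). Leaving out 1 array gave −0.23 to 0.046 for Il10, −0.068 to 0.078 for Il1rn, −0.079 to 0.083 for Tnfaip3, −0.034 to 0.079 for Rela, −0.013 to 0.29 for Il1r1, −0.094 to 0.18 for Il1rap and −0.042 to 0.21 for Tnfrsf1b. None of these values passed, and the cause was not tested. Signal limits what could be seen: in total testicular cells 8 of 9 members were at most 2 log2 units above background.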

Other observations

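Of the 100 measured pathway genes, 27 were higher and 6 lower without overlap between the groups, where 13.8% of all genes were higher and 19.2% lower. Some of the higher ones that did not pass over all probe sets, chosen after their values were seen, are given here. Vcam1, an adhesion molecule induced by NF-kappaB, read 5.36, 6.19 and 4.81 in total testicular cells and 8.58, 7.48 and 6.46 in stem cells (log2 difference 2.05, limma adjusted p = 0.0749). Its other probe sets differed by 1.54 (limma adjusted p = 0.0429, which passes) and 1.62 (0.0832). Ier3, a stress-induced survival gene, differed by 1.96 (limma adjusted p = 0.0679). Zfp36, whose product speeds the decay of cytokine mRNAs such as that of Tnf, read 4.17, 4.42 and 3.31 against 7.83, 6.06 and 5.21 (2.40, limma adjusted p = 0.0710). Pycard, the adaptor that activates the protease of Casp1, differed by 1.79 (limma adjusted p = 0.0547), while a second probe set below background differed by 0.20.

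Of the 8 measured genes of interleukin 6 and 10 signalling, 0 passed, with 6 positive and 2 negative differences. Jak1, a kinase of the interleukin 6 and 10 receptors, lay at 4.41 to 4.54 against 5.47 to 6.49 (1.33, limma adjusted p = 0.0504), with 0.71 and 0.14 for its other probe sets. Socs3, a feedback inhibitor of these receptors, lay at 2.92 to 4.58 against 4.10 to 7.51, with overlap between the groups (1.96, limma adjusted p = 0.161). Of the same list, Pim1 differed by 0.03, Tyk2 by −0.13 and Cish by −0.19. The fluidics round as a block takes no information on the difference from stem cell replicate 3. With it the limma adjusted p was 0.0214 for Vcam1 (the probe set given first), 0.0324 for Ier3 and 0.0200 for Zfp36. For Pycard, Jak1 and Socs3 the limma adjusted p was 0.0108, 0.0160 and 0.0384, so all 6 passed. These 6 were chosen after their values were seen, and with this block 13 of the 100 pathway genes and 767 of all 12393 genes passed.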
